A study of Mus musculus with 36 samples.

Results

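The cytosolic ribosome of the mouse is built from ribosomal RNA and a fixed set of ribosomal proteins, and the genes described here encode those proteins. They were chosen by name: protein-coding genes of the GRCm38 annotation whose symbol begins with Rpl, Rps or Rplp and a digit, or is Rpsa, leaving out the S6 kinase genes, Rps19bp1 and pseudogenes. The annotation held 85 such genes, and 82 of them were in each of the deposited count tables, among 16690 genes in epididymal white fat (eWAT, a visceral depot of male mice) and 14052 genes in liver. Of these 82 members, 49 encode proteins of the large subunit and 33 proteins of the small subunit. Rpl10l, Rpl39l and Rpl3l, paralogs with a narrow expression known mainly from testis and muscle, were in neither table and were not analysed here.

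RNA was sequenced from wild-type C57BL/6 males of the founder generation (F0) that had eaten chow until 6 weeks of age and were 24 weeks old at the end. The HFLF group ate a high-fat diet for 9 weeks and then a low-fat diet for 9 weeks, the HF group ate the high-fat diet for 18 weeks, and the LF group ate the low-fat diet for 18 weeks. Each diet had 6 eWAT and 6 liver libraries, 36 in all. No label ties a library to its own mouse, so the p-values measure the spread between these libraries only, which may be technical.

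Ribosomal protein genes are transcribed at high rates, and an unpaired ribosomal protein is degraded. Their mRNAs begin with a cytosine and a run of pyrimidines, the 5′ terminal oligopyrimidine (TOP) motif, through which the kinase complex mTORC1 and the RNA-binding protein Larp1 control their translation and stability according to nutrient supply. The liver is a tissue of heavy protein synthesis, and eWAT stores fat and takes up macrophages in obesity.

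The first bases of 8 members show the motif and where it varies. RefSeq promoter entries (GRCm38.p6) existed for 65 members, 62 of them measured, with 77 start sites. In the sequences below, 5′ to 3′ on the strand of the gene, the first 10 bases precede the annotated start and the capitals mark the unbroken run of pyrimidines that begins at it. Rps6, Rpl15, Rpl35, Rps18 and Rplp2 start with a C and at least 4 more pyrimidines, while Rpl27a starts with a T. Rps27 and Rps27rt are shown because their first bases are nearly the same, and reads of such copies are hard to assign.

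Rps6, chr4:86857348-86857377, minus strand: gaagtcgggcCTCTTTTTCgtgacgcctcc

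Rpl15, chr14:18270967-18270996, minus strand: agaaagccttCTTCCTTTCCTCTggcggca

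Rpl35, chr2:39005112-39005141, minus strand: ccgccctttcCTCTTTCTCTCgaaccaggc

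Rps18, chr17:33955646-33955675, minus strand: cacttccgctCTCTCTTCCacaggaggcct

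Rplp2, chr7:141447641-141447670, plus strand: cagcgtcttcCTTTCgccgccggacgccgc

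Rpl27a, chr7:109519185-109519214, plus strand: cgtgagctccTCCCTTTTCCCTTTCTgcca

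Rps27, chr3:90213629-90213658, minus strand: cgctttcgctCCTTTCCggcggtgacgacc

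Rps27rt, chr9:114982720-114982749, minus strand: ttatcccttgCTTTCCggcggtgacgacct

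Of the 77 member starts, 14 (18.2%) began exactly with a C and 4 pyrimidines, against 2.5% of the 32851 starts of all genes. A C followed by 5 pyrimidines within 5 bases of the start was present at 36.4% of member starts, against 10.2% of all starts. A start annotated some bases away from the true one hides the motif, so these are shares of annotated starts. Among motifs searched on both strands of 300 bases, overlaps allowed, CCGGAAG, the core that the factor GABP reads, was found at 35.1% of member starts and 8.9% of all starts. GGGCGG, the SP1 core, was found at 59.7% and 35.7%, AAGATGG, the YY1 core, at 15.6% and 6.3%, and TATAAA at 9.1% and 13.6%.

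The 250 bases before the starts of Rpl35 and Rpl27a, from the same RefSeq build, show promoters that hold both the GABP and the SP1 letters. Capitals mark CCGGAAG or GGGCGG on either strand (CTTCCGG and CCGCCC are their complements read backwards), and in Rpl27a the first pair is adjacent.

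Rpl35, chr2:39005132-39005381, minus strand: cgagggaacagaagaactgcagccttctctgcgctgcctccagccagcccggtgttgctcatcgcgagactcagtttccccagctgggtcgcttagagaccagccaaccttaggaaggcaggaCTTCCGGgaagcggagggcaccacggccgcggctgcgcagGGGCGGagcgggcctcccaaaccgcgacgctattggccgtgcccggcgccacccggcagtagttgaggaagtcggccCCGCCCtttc

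Rpl27a, chr7:109518945-109519194, plus strand: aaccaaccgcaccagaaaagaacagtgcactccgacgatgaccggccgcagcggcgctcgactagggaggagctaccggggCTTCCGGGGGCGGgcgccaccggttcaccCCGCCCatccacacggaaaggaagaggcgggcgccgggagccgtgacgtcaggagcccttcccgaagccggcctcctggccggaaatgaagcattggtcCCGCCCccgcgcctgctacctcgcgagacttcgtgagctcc

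Libraries held 8.94 to 31.2 M counts in eWAT and 11.7 to 23.3 M in liver (M: 1000000), and the 82 members together took 115607 to 363196 counts per eWAT library and 93321 to 233528 per liver library. Levels below are CPM, a gene's count per 1000000 counts of its library, scaled by edgeR's TMM factors within a tissue. Sets of libraries stood apart. In liver, LF 1 to 4 summed to 35385.2 to 51639.8 CPM over 12 acute-phase and stress genes, against 12100.0 to 19959.8 CPM in the other 14 liver libraries. In eWAT, 5 libraries held over 1 CPM of the epididymal transcripts Crisp1 and Cst8, summed. They were LF 3 (218.4 CPM), HF 1 (14.7), HFLF 4 (7.47), HFLF 6 (5.76) and LF 4 (3.73), against 0 to 0.996 CPM in the other 13. Of 13 listed epididymal genes only these 2 were measured. The hepatocyte list was measured in full in liver (68330.2 to 108205.0 CPM summed), where the adipocyte genes Adipoq, Plin1 and Lep were not in the table. In eWAT all 5 adipocyte genes were measured.

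The members made up a larger share of the counts in eWAT than in liver, and in liver the share was lowest on HF. In eWAT it had a median of 1.27% on HFLF (1.08% to 1.39%), 1.32% on HF (1.11% to 1.55%) and 1.23% on LF (1.16% to 1.46%). In liver it had a median of 0.82% on HFLF (0.773% to 1.00%), 0.735% on HF (0.686% to 0.80%) and 0.896% on LF (0.843% to 1.12%), so that no HF library reached the lowest LF library.

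**Figure D1:**
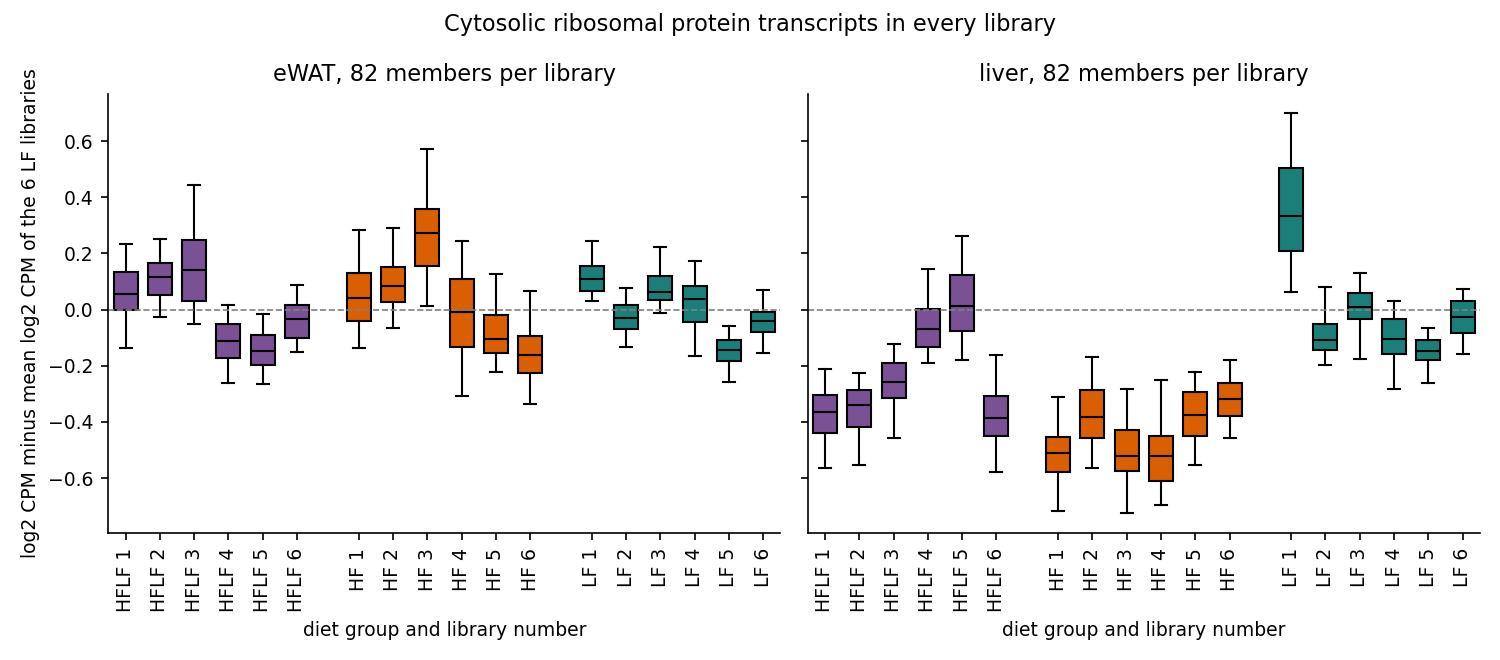
Each box shows the 82 members in 1 library as log2 CPM minus the member's mean on LF in that tissue (line: median, box: quartiles, whiskers: 5th and 95th percentiles), with eWAT on the left, liver on the right and the diets in the order HFLF, HF, LF. The medians of the 6 liver HF libraries lie between -0.52 and -0.32, all below the 6 LF libraries, while the eWAT boxes of the 3 diets overlap.

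In liver, ribosomal protein mRNAs of both subunits were lower on HF than on LF. Of the 82 members 76 fell and 0 rose (edgeR's quasi-likelihood test, Benjamini-Hochberg adjusted p under 0.05 over all 14052 genes), where 18.5% of all genes were called lower and 16.3% higher. All 82 log2 fold changes were negative, with a median of -0.45 (0.733-fold) against 0.001 over all genes, and the quartiles of the members lay between -0.52 and -0.39. In 68 members the 6 HF libraries all lay below the 6 LF libraries, a separation seen downward in 5.89% of all genes and upward in 5.06%, here in 0 members. The fold changes had an SD of 0.105 among members, and the median standard error of a member's fold change was 0.097. After removal of the diet means, a member's Pearson r with the mean of the other members had a median of 0.909 in liver. Such shared variation adds to the standard error but little to the spread among members, so these values cannot show whether members differed. Differences between members were not tested.

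The median over members of the log2 difference from the LF mean was -0.51, -0.38, -0.52, -0.52, -0.38 and -0.32 in HF libraries 1 to 6. In LF libraries 1 to 6 it was 0.34, -0.11, 0.01, -0.11, -0.15 and -0.03, so LF 1 stood above the other 5, with 80 members above their LF mean. Without LF 1 to 4, the libraries with high acute-phase sums, the median over members was -0.35 and 10 members fell, with 2 LF libraries left. Whether the acute-phase state of those libraries has a part in the difference was not tested. Summed hepatocyte genes (5 of 5 measured) were at 68330.2 to 85342.7 CPM on HF and 78967.1 to 108205.0 CPM on LF. T and B cell genes (4 of 7 measured) were at 2.12 to 5.24 CPM on HF and 0.69 to 1.99 CPM on LF. Of the 5 genes on the adipocyte list only Cidec and Lipe were measured, at 32.7 to 175.9 CPM on HF and 18.2 to 29.3 CPM on LF. Adipoq, Plin1 and Lep were not in the liver table, so this sum does not show that fat cells were present. The mitochondrially encoded share of counts was 3.51% to 4.07% on HF and 3.18% to 3.81% on LF. Depth was 11.7 to 20.3 M counts on HF and 18.3 to 23.3 M on LF. The part of these sums, of that share and of depth in the result was not tested. In bulk tissue, fewer cells of a type and less RNA per cell cannot be told apart.

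The stalk of the large subunit, which recruits elongation factors, was lower as a whole on HF. Rplp0, the stalk base, had 274.5, 287.1 and 330.1 CPM (lowest, median and highest library) on HF and 371.3, 414.1 and 452.9 CPM on LF. No HF library reached an LF library, and the log2 fold change was -0.48 ± 0.07 (SE; edgeR adjusted p = 0.000254). Its partners Rplp1 (-0.38 ± 0.10, adjusted p = 0.00594) and Rplp2 (-0.42 ± 0.09, adjusted p = 0.00256) were also separated from LF in every library.

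Among large-subunit members 47 of 49 fell (median -0.44). Rpl10a, the protein of the L1 stalk where the deacylated tRNA leaves, had the largest fall. It had 51.6, 58.9 and 70.4 CPM on HF and 82.4, 89.3 and 130.6 CPM on LF, without overlap (-0.67 ± 0.12, edgeR adjusted p = 0.000516). Rpl12, beside the P stalk, had 44.3, 48.5 and 56.6 CPM on HF and 65.1, 69.0 and 115.5 CPM on LF, also without overlap (-0.64 ± 0.15, adjusted p = 0.00471). For both, LF 1 gave the highest LF value, and the other LF libraries still lay above every HF library.

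Rpl5 and Rpl11, which carry the 5S rRNA into the ribosome and bind Mdm2 when free, fell too. Rpl5 had 25.3, 28.0 and 30.5 CPM on HF and 32.0, 35.6 and 42.9 CPM on LF (-0.41 ± 0.09, edgeR adjusted p = 0.00219). Rpl11 had 39.3, 40.9 and 45.4 CPM on HF and 47.0, 50.4 and 75 CPM on LF (-0.37 ± 0.11, adjusted p = 0.0177). HF and LF libraries did not overlap in either gene. Rpl22, an RNA-binding protein of the large subunit, had the smallest fall that was called, with 86.2, 92.0 and 105.2 CPM on HF and 94.8, 109.1 and 114.6 CPM on LF, and the groups overlapped (-0.20 ± 0.07, adjusted p = 0.0298).

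Among small-subunit members 29 of 33 fell (median -0.46). Rpsa, which was first described as a laminin receptor precursor, had 113.9, 132.6 and 148.9 CPM on HF and 179.5, 200.5 and 247.4 CPM on LF, with no overlap (-0.62 ± 0.09, edgeR adjusted p = 0.000197). Rps6, the substrate of the S6 kinases downstream of mTORC1, had 36.9, 42.2 and 44.1 CPM on HF and 52.6, 54.9 and 83.2 CPM on LF (-0.53 ± 0.14, adjusted p = 0.0068). Again the highest HF library lay below the lowest LF library.

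Rps3, at the mRNA entry of the small subunit, had 204.2, 225.0 and 245.2 CPM on HF and 287.3, 301.8 and 321.1 CPM on LF (-0.42 ± 0.07, edgeR adjusted p = 0.000312). Rps27a, made as a fusion with ubiquitin, had 49.4, 53.4 and 58.4 CPM on HF and 67.7, 74.5 and 95.5 CPM on LF (-0.52 ± 0.09, adjusted p = 0.000489). Rps19, mutated in human Diamond-Blackfan anaemia, had 59.3, 63.6 and 66.4 CPM on HF and 67.7, 77.6 and 91.0 CPM on LF (-0.30 ± 0.07, adjusted p = 0.00336). None of these 3 had an HF library inside the LF range. Rps12 (-0.61 ± 0.15, adjusted p = 0.00558) and Rps27 (-0.60 ± 0.15, adjusted p = 0.00551) were the next largest falls of the small subunit after Rpsa.

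**Figure D2:**
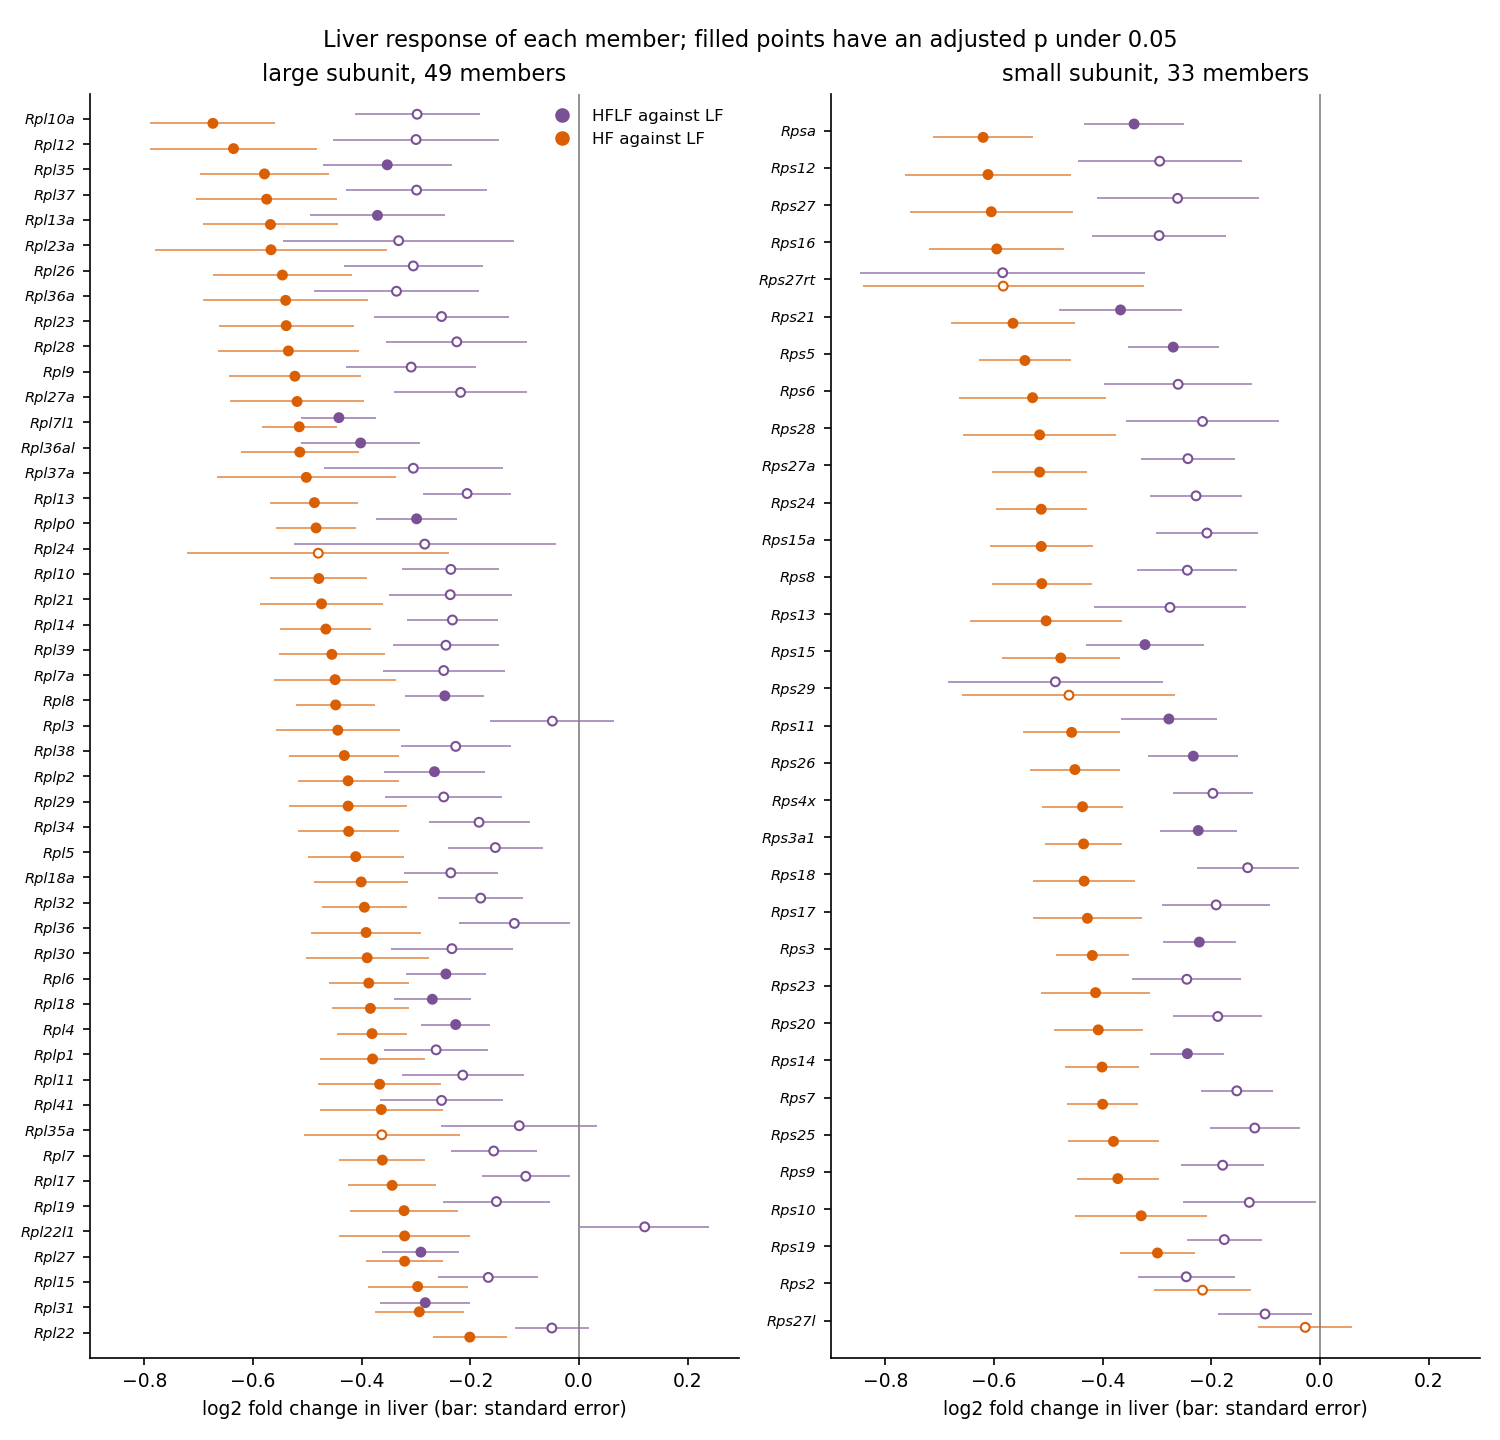
Each row is 1 member, ordered by its fold change, with the liver log2 fold change of HFLF against LF and of HF against LF and its standard error (49 large-subunit members on the left, 33 small-subunit members on the right; filled points have an adjusted p under 0.05). All points for HF against LF lie left of 0, from -0.67 to -0.03, and the points for HFLF against LF lie from -0.58 to 0.12.

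The 6 members not called were Rpl24, Rpl35a, Rps2, Rps27l, Rps27rt and Rps29, which were called in none of the 6 diet comparisons. Rps2 had 333.7, 402.9 and 442.0 CPM on HF and 406.8, 445.5 and 553.2 CPM on LF (-0.22 ± 0.09, edgeR adjusted p = 0.0654), and the groups overlapped. Rpl24 (-0.48 ± 0.24), Rps29 (-0.46 ± 0.20) and Rps27rt (-0.58 ± 0.26) were measured at low levels, with medians of 4.93, 6.92 and 1.15 CPM on HF, and had standard errors above those of most members. Rps27l had 100.4, 114.9 and 123.3 CPM on HF and 98.1, 114.1 and 137.9 CPM on LF (-0.03 ± 0.09, adjusted p = 0.832). It lay nearest to 0 of all members, and its sign turned under several alternative settings.

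Members that have a paralog did not behave alike in liver. Rps27l, known in human cells as a target of p53, is the paralog of Rps27, which had 43.8, 53.8 and 61.1 CPM on HF and 63.9, 73.9 and 128.0 CPM on LF. Rps27 separated the diets in all libraries where Rps27l did not. Rpl7l1, whose human counterpart is found in nucleolar precursors of the large subunit, had 51.7, 56.9 and 61.8 CPM on HF and 73.1, 84.1 and 88.5 CPM on LF (-0.52 ± 0.07, edgeR adjusted p = 9.83e-05), and its partner Rpl7 also fell (-0.36 ± 0.08, adjusted p = 0.00247). Rpl36al (-0.51 ± 0.11, adjusted p = 0.00204) and Rpl36a (-0.54 ± 0.15, adjusted p = 0.0113) both fell. Rpl22l1, whose mRNA Rpl22 represses in mouse cells, fell with overlapping groups (-0.32 ± 0.12, adjusted p = 0.0443). The differences between paralogs were not tested.

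Rpl3, Rpl10 and Rpl39, the partners of the paralogs that were not measured, fell as well, and so did Rps4x. Rpl3, a protein near the peptidyl transferase centre, had 74.6, 90.4 and 104.7 CPM on HF and 101.5, 114.7 and 150.4 CPM on LF, with a small overlap (-0.44 ± 0.11, edgeR adjusted p = 0.00661). Rpl10, which joins the large subunit late in its maturation, had 153.3, 163.8 and 176.0 CPM on HF and 206.2, 218.7 and 289.8 CPM on LF (-0.48 ± 0.09, adjusted p = 0.000902). Rpl39, in the exit tunnel of the nascent chain, had -0.46 ± 0.10 (adjusted p = 0.0023), and Rps4x, encoded on the X chromosome, had -0.44 ± 0.07 (adjusted p = 0.00047). In the last 3 the HF and LF libraries did not overlap.

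Several features that members share or lack went with similar counts in liver. Of the 14 members with an exact C and 4 pyrimidines at a start, 12 fell (median -0.49), and of the 35 with a promoter entry and no such run within 5 bases, 33 fell (median -0.48). With CCGGAAG in a promoter 23 of 25 fell, and without it 34 of 37. Many members share sequence with processed pseudogenes. A median of 23.9% of a member's 50-base stretches occurred in another gene, and 8 members had at least 50% shared, up to 91.1% in Rps27rt and 81.1% in Rpl36. Counts of these 8, of which 6 fell (median -0.46), are uncertain, while of 14 members with under 10% shared 13 fell (median -0.42). Of 32 members that overlap no other annotated gene 30 fell. Across the 82 members the log2 fold change had a Pearson r of -0.10 with the shared sequence, 0.03 with mRNA length and 0.17 with mean level.

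After the return to low-fat diet, the members' median level in liver lay between those of the other groups. On HFLF 21 members were lower than on LF and 0 higher (edgeR adjusted p under 0.05), where 12.4% of all genes were lower and 10.2% higher. The median log2 fold change was -0.24 (0.845-fold), and 81 of 82 values were negative. The 6 HFLF libraries differed among themselves, with medians over members of -0.37, -0.34, -0.26, -0.07, 0.01 and -0.39 relative to the LF mean. HFLF 4 and 5 were near the LF mean and the other 4 were below it. HFLF 4 and 5 held 12.7 and 13.2 M counts, and HFLF 6, which had the lowest median, held 13.9 M. Depth ran from 12.7 to 19.8 M counts on HFLF and from 18.3 to 23.3 M on LF. T and B cell genes summed to 2.72 to 5.19 CPM on HFLF and 0.69 to 1.99 CPM on LF. Cidec and Lipe, the measured genes of the adipocyte list, summed to 30.1 to 40.7 CPM on HFLF and 18.2 to 29.3 CPM on LF. The mitochondrially encoded share was 3.55% to 3.98% on HFLF and 3.18% to 3.81% on LF, and the part of these measures in the result was not tested. In 4 members the HFLF and LF libraries did not overlap downward and in 0 upward (background 3.37% and 2.78%).

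The largest called falls on HFLF were in Rpl7l1, Rpl36al, Rpl13a and Rps21. Rpl7l1 had 56.7, 57.9 and 71.3 CPM on HFLF, against 73.1, 84.1 and 88.5 CPM on LF, with no overlap (-0.44 ± 0.07, edgeR adjusted p = 0.000725). Rpl36al had 8.6, 10.1 and 12.7 CPM on HFLF, against 11.4, 12.7 and 17.4 CPM on LF (-0.40 ± 0.11, adjusted p = 0.0144), and the ranges overlapped. Rpl13a, a protein also known from a complex that silences inflammatory mRNAs in human monocytes, had 14.6, 16.6 and 27.3 CPM on HFLF and 19.1, 24.0 and 27.7 CPM on LF (-0.37 ± 0.13, adjusted p = 0.0392). HFLF 4 alone lay inside the LF range, and the other 5 HFLF libraries were below every LF library. Rps21, of the small subunit, had -0.37 ± 0.11 (adjusted p = 0.027).

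Rplp0 had 302.8, 331.6 and 376.7 CPM on HFLF, overlapping LF at its top. Rpsa had 143.4, 157.8 and 183.7 CPM on HFLF (-0.34 ± 0.09, edgeR adjusted p = 0.014) and Rps3 238.0, 252.8 and 294.3 CPM (-0.22 ± 0.07, adjusted p = 0.0236). In Rps3 HFLF 4 alone reached into the LF range, and in Rpsa HFLF 4 and 5 did. Rpl10a (-0.30 ± 0.12, adjusted p = 0.0677), Rpl5, Rpl11, Rps6 and Rps19 were not called on HFLF against LF. The count of 21 moved with single libraries: it was 10 without LF 1, 36 without LF 5, 9, 11, 12 and 10 without HFLF 1, 2, 3 and 6, and 40 without HFLF 5. With unscaled total counts, which shift the median of all genes to 0.12 here and to 0.10 for HF against LF, 1 member was called, and without LF 1 to 4 no member was.

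Against HF, HFLF livers had 3 members higher and 0 lower (edgeR adjusted p under 0.05), where 2.18% of all genes were higher and 3.05% lower. The median was 0.21 (1.16-fold), 78 of 82 values were positive and 42 had an unadjusted p under 0.05. DESeq2 called 17 members higher and limma voom 19, but the shares of all genes that these called are not given here. Rpl22l1 had 16.1, 21.6 and 23.8 CPM on HFLF and 13.1, 14.5 and 18.8 CPM on HF, with overlap (0.44 ± 0.12, adjusted p = 0.0408). Rps7, a small-subunit protein that also binds Mdm2, had 93.9, 101.4 and 110.2 CPM on HFLF and 78.5, 82.7 and 96.4 CPM on HF (0.25 ± 0.07, adjusted p = 0.0382). Rpl13, of the large subunit, had 129.1, 142.2 and 163.5 CPM on HFLF and 107.8, 113.7 and 136.0 CPM on HF (0.28 ± 0.08, adjusted p = 0.0499). Only 1 member, Rps15a, had all HFLF libraries above all HF libraries (background 1.56%), and 0 had all below (background 2.3%). The count of 3 was between 0 and 8 when single libraries were left out, and it was 0 without any 1 of HF 1, 2, 3 or 4 or of HFLF 3, 4, 5 or 6. It was 1 without HFLF 1, 6 without HF 5 or HFLF 2, and 8 without HF 6.

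In eWAT the members as a group stayed near the LF level on HF. Of 82 members 3 rose and 2 fell (edgeR adjusted p under 0.05), while 20.6% of all eWAT genes rose and 20.2% fell. The median log2 fold change was 0.03, with 51 positive and 31 negative values between -0.41 and 0.41, and 9 members had an unadjusted p under 0.05. The HF libraries differed among themselves, with medians over members of 0.04, 0.08, 0.27, -0.01, -0.11 and -0.16 relative to the LF mean. HF 3, the highest, also had the highest sums of macrophage markers (3645.0 CPM over 7 of 7 genes) and fibroblast markers (11895.3 CPM over 5 of 5). HF 5 and 6, the lowest, had the lowest macrophage sums on HF (517.7 and 797.8 CPM). The libraries between did not keep this order. HF 4, at -0.01, had 2687.9 CPM of macrophage and 8308.8 CPM of fibroblast markers. HF 2, at 0.08, had less of both (1242.6 and 4941.5 CPM). The macrophage sums were 517.7 to 3645.0 CPM on HF and 247.7 to 380.9 CPM on LF. The fibroblast sums were 3514.1 to 11895.3 CPM on HF and 2291.7 to 3422.0 CPM on LF. The adipocyte sums were 7099.9 to 17408.1 CPM on HF and 9911.9 to 17676.2 CPM on LF, and the mitochondrially encoded share was 1.48% to 3.04% on HF and 2.91% to 3.52% on LF. The part of cell makeup and of that share in the members' levels was not tested.

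The rises in eWAT were in Rpl13a, Rps26 and Rpl22l1. Rpl13a had 21.1, 23.2 and 32.7 CPM on HF and 15.4, 18.2 and 22.7 CPM on LF, with overlap (0.41 ± 0.12, edgeR adjusted p = 0.00911). Rps26, at the mRNA exit of the small subunit, had 139.9, 167.7 and 212.6 CPM on HF and 125.3, 136.8 and 142.6 CPM on LF (0.30 ± 0.09, adjusted p = 0.0158). Its HF 5 and 6 lay inside the LF range and the other 4 above it. Rpl22l1 had 34.4, 36 and 39.5 CPM on HF and 25.2, 30.9 and 33.1 CPM on LF (0.27 ± 0.10, adjusted p = 0.0311), and was the 1 member with every HF library above every LF library (background 9.44%), while 0 members had every HF library below (background 6.39%).

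Rplp0, Rpsa and Rps6, which separated the diets in liver, overlapped in eWAT. Rplp0 had 566.5, 580.9 and 662.2 CPM on HF and 533.1, 567.0 and 658.6 CPM on LF. Rpsa had 232.8, 256.5 and 290.7 CPM on HF and 224.7, 266.5 and 312.6 CPM on LF. Rps6 had 49.9, 59.5 and 69.4 CPM on HF and 53.6, 61.2 and 63.9 CPM on LF, and none of the 3 was called by edgeR.

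The falls in eWAT were in Rplp2 and Rpl36. Rplp2 had 162.7, 197.3 and 230.8 CPM on HF and 209.7, 282.6 and 303.6 CPM on LF (-0.41 ± 0.11, edgeR adjusted p = 0.00706). LF 4 and 5 overlapped the HF range and the other 4 LF libraries lay above it. Its stalk partners did not follow, with -0.05 ± 0.09 in Rplp1 (adjusted p = 0.697) and 0.05 ± 0.07 in Rplp0 (adjusted p = 0.614), so that neither was called. Rpl36, of the large subunit, had 109.7, 110.9 and 122.0 CPM on HF and 112.9, 130.0 and 144.2 CPM on LF (-0.20 ± 0.07, adjusted p = 0.023), and its counts are uncertain for the shared sequence given above. Without the 5 eWAT libraries that held epididymal transcripts, 1 member rose and 1 fell, and Rps26 (adjusted p = 0.0527), Rpl22l1 (0.0503) and Rpl36 (0.108) were no longer called by edgeR.

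**Figure D3:**
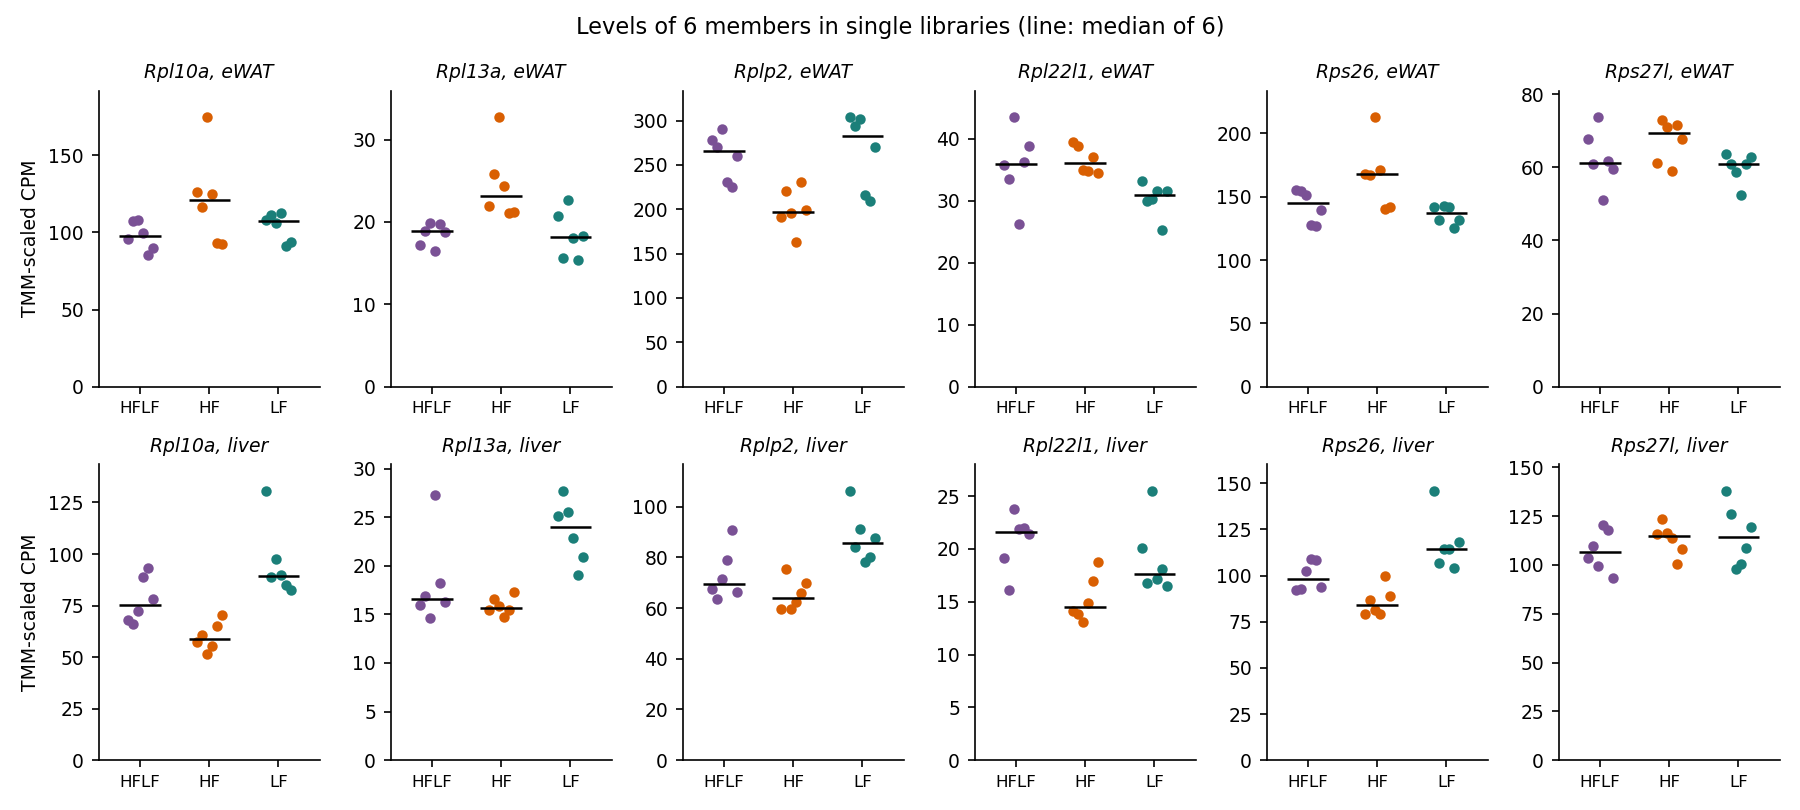
Points are single libraries of 6 members in TMM-scaled CPM (top row eWAT, bottom row liver, diets HFLF, HF and LF from left to right), and lines are medians of 6 libraries. Rpl13a is highest on HF in eWAT (median 23.2 CPM) and lowest on HF in liver (median 15.7 CPM), Rplp2 is lowest on HF in both tissues, and Rps27l has similar medians on HF (114.9 CPM) and LF (114.1 CPM) in liver.

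In eWAT of HFLF mice, 0 members were called against LF (edgeR adjusted p under 0.05, where 0.342% of all genes were higher and 0.222% lower). That count is near the shares of all genes and does not show that the members were equal to LF. Rpl22l1 and Rps10 had an unadjusted p under 0.05, and DESeq2 and limma voom called 0 members as well. The median was 0.01, values ran from -0.30 to 0.23, and in 0 members were the groups separated (background 1.9% upward and 0.665% downward). Against HF, 1 member was higher on HFLF and 2 were lower, with 10.7% of all genes higher and 14.7% lower. Rpl13a had 16.5, 18.9 and 19.9 CPM on HFLF, all below the HF libraries (-0.40 ± 0.12, edgeR adjusted p = 0.0168). Rpl7l1 had 53.0, 59.2 and 67.2 CPM on HFLF and 68.0, 69.7 and 82.7 CPM on HF, likewise without overlap (-0.27 ± 0.08, adjusted p = 0.0242). These were the 2 members so separated downward (background 4.67%), with 0 upward (background 4.77%). Rplp2 had 225.3, 265.2 and 290.9 CPM on HFLF and overlapped HF (0.38 ± 0.11, adjusted p = 0.0199).

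Rpl22l1 on HFLF in eWAT had 26.2, 36 and 43.4 CPM, the same median as on HF with a wider range, and was not called against LF (0.23 ± 0.10, edgeR adjusted p = 0.216). Without the 5 libraries with epididymal transcripts, 0 members were called between HFLF and HF. The single libraries that moved these counts over 1.5 times were HF 3, 4, 5 and 6 and HFLF 3, 4 and 5, and the counts then ran from 0 to 2 higher and from 1 to 4 lower. For HF against LF in eWAT they were LF 1, 2, 3 and 5 and HF 3 and 5, with 2 to 6 higher and 1 to 4 lower.

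The response to the high-fat diet differed between the tissues. In a joint fit of 36 libraries over the 13206 genes in both tables, the difference of HF against LF was higher in eWAT than in liver for 58 of 82 members and lower for 0 (edgeR adjusted p under 0.05), where 21% of all genes were higher and 24.6% lower. The median difference was 0.43 log2, against -0.04 over all genes. The largest were in Rpl13a (0.92 ± 0.17, adjusted p = 6.62e-05), Rpl10a (0.84 ± 0.17, adjusted p = 0.000278), Rps16, of the small subunit head (0.77 ± 0.17, adjusted p = 0.00042), and Rpl12 (0.75 ± 0.19, adjusted p = 0.00224). Without liver LF 1 to 4 the count was 33.

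Rps16 had 93.2, 118.9 and 148.4 CPM on HF and 88.9, 99.5 and 109.7 CPM on LF in eWAT, with overlap, and 59.1, 67.7 and 74.6 CPM on HF and 86.8, 93.7 and 143.1 CPM on LF in liver, without overlap. Rpl10a in eWAT had 92.3, 120.7 and 174.6 CPM on HF and 91.3, 107.3 and 112.9 CPM on LF, with overlap and no call (adjusted p = 0.174). Rplp2 was a member without a difference past the threshold (-0.04 ± 0.14, adjusted p = 0.838), since its log2 fold changes were -0.41 in eWAT and -0.42 in liver. Rps19 (0.03 ± 0.11, adjusted p = 0.834), Rpl36 (0.14 ± 0.12, adjusted p = 0.343) and Rps27l (0.14 ± 0.12, adjusted p = 0.342) were also not called. From the fits of each tissue, all 82 members had the lower value in liver, and the log2 fold changes of the tissues had a Pearson r of -0.14 across members, which are not independent.

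**Figure D4:**
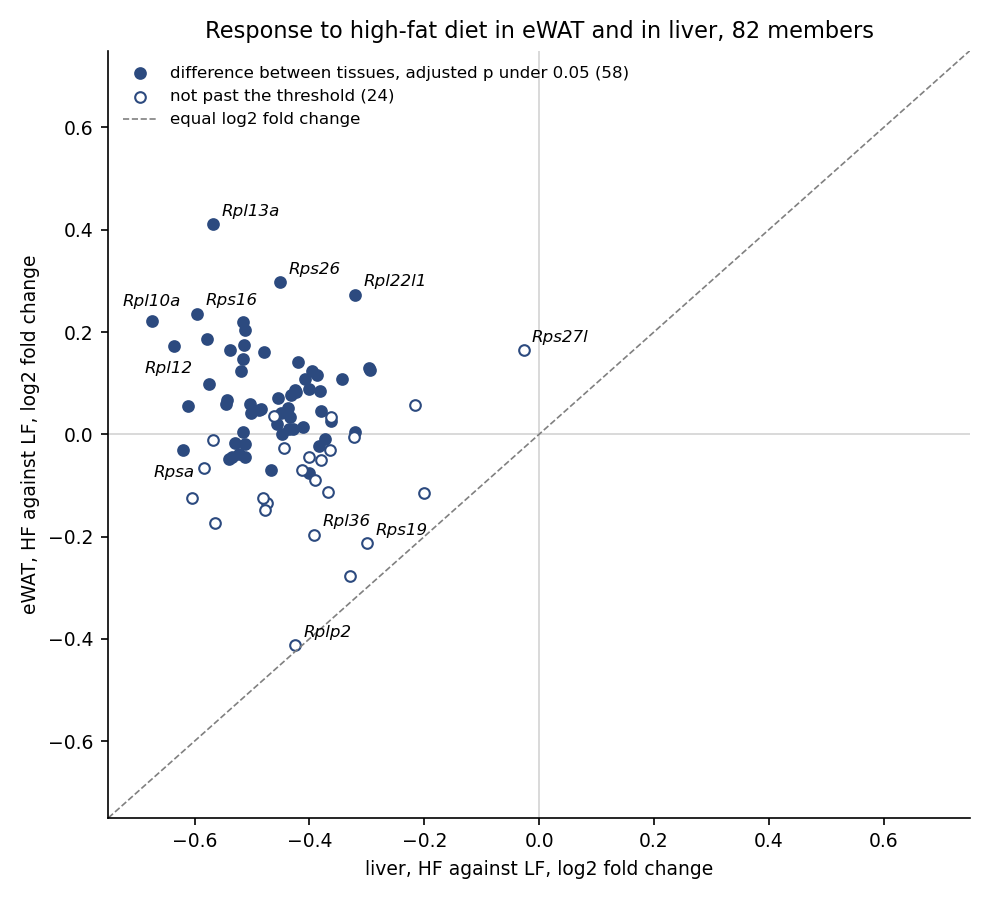
Each point is 1 of 82 members, with its liver log2 fold change of HF against LF on the x axis and its eWAT log2 fold change on the y axis (filled: difference between tissues with an adjusted p under 0.05, 58 members; the dashed line marks equal changes). All points lie above the line, Rpl13a farthest at 0.41 in eWAT and -0.57 in liver, and Rplp2 close to the line.

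The step from HF to HFLF also differed, being lower in eWAT than in liver for 14 members and higher for 0 (edgeR adjusted p under 0.05, background 9.18% lower and 8.78% higher, median -0.22). Rpl10a (-0.67 ± 0.17, adjusted p = 0.00876), Rpl13a (-0.58 ± 0.17, adjusted p = 0.0162), Rps16 (-0.48 ± 0.17, adjusted p = 0.0425) and Rpl22l1 (-0.47 ± 0.15, adjusted p = 0.0322) had the largest differences among the 14 called. Rpl10a had 85.3, 97.8 and 108.3 CPM on HFLF in eWAT, with a median below HF, and 66.2, 75.4 and 93.4 CPM on HFLF in liver, with a median above HF. This comparison shares its HF libraries with the one before. The count of 14 ran from 6 to 25 when single libraries were left out. It was 6 to 8 without any 1 of liver HF 1 to 4, liver HFLF 3 to 5, eWAT HF 1, 3 or 4 or eWAT HFLF 4 to 6, and it was 22 and 25 without eWAT HF 5 and 6.

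Per kilobase of mRNA, the order of the members was much alike in the tissues on LF (Spearman rho 0.955 over 82 members). In eWAT Rplp1 (766.2 CPM per kb), Rpl8 (461.8), Rps15 (441.4), Rps14 (434.5) and Rplp0 (427.0) led, and in liver Rplp1 (490.0 CPM per kb), Rps2 (422.3), Rpl8 (358.3), Rpl4 (323.9) and Rplp0 (304.6). In eWAT the 4 after Rplp1 differed from their neighbours by less than the spread between libraries, which was 44.0 CPM around 579.9 CPM for Rplp0 (SD, n = 6). In liver the steps from Rps2 to Rpl8 and from Rpl8 to Rpl4 were larger than 1 SD of either gene, and that from Rpl4 to Rplp0 was not. Rps27rt was lowest in both, at 4.87 CPM per kb in eWAT and 4.28 in liver. These lengths come from annotated transcripts, so a long annotated form lowers a member's value.

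Levels on LF were also compared between eWAT and liver. By TMM 2 members were higher and 55 lower in eWAT than in liver (edgeR adjusted p under 0.05, background 40.4% higher and 38.3% lower, median -0.35), but with total counts 62 were higher and 4 lower (median 0.42), while the median of all genes moved to 0.79, so the direction of the group depends on scaling. Without liver LF 1, 4 members were higher by TMM. Rpl36al (-1.85 ± 0.11, adjusted p = 1.4e-16), Rps27l (-1.65 ± 0.08, adjusted p = 1.84e-18), Rpl13a (-1.06 ± 0.12, adjusted p = 9.94e-10) and Rpl7l1 (-1.04 ± 0.07, adjusted p = 3.79e-15) were lower in eWAT under both scalings. Rplp2 (0.88 ± 0.10, adjusted p = 1.11e-09) and Rps19 (0.72 ± 0.08, adjusted p = 3.21e-10) were higher in eWAT under both.

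Members varied together from library to library. The Pearson r of a member's log2 CPM with the mean of the other members had a median of 0.812 over the 18 eWAT libraries (0.208 to 0.948) and 0.948 over the 18 liver libraries (0.38 to 0.985). After removal of the diet means the medians were 0.864 in eWAT and 0.909 in liver. So the members also moved together among libraries of 1 diet. Such libraries still differed in depth (10.7 to 31.2 M counts in eWAT on LF) and in marker sums. On HF in eWAT, for example, the macrophage sums ran from 517.7 to 3645.0 CPM. The part of these differences in the correlations was not tested. Rplp2 (0.208), Rpl36al (0.237), Rps19 (0.321) and Rps27l (0.369) followed the others least in eWAT, and Rps27l (0.38), Rpl36al (0.47), Rps10 (0.47) and Rpl22l1 (0.547) in liver. Of genes that are no members and had a mean of at least 5 CPM, those most like the member mean were Fau (r = 0.943), which encodes the small-subunit protein eS30, Anapc11 (0.845), Zmat5 (0.832) and the elongation factor Eef1a1 (0.826) in eWAT, and Tpt1 (0.982), Impdh2 (0.946), Zswim8 (0.937) and Acin1 (0.926) in liver, over 18 libraries each.

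Other genes of ribosome assembly and translation were set beside the members by lists. One list held ribosome-associated proteins and also ribosomal proteins under other symbols, so it is not apart from the ribosome. In liver on HF against LF, 18.5% of all genes were lower and 16.3% higher. All 7 genes of that list fell (median -0.33). Among them was Rack1, a scaffold on the small subunit (-0.52 ± 0.07, edgeR adjusted p = 0.000152). Of 63 nucleolar assembly factors 40 fell (63.5%) and 0 rose (median -0.32). The falls included the helicase Ddx21 (-0.74 ± 0.11, edgeR adjusted p = 0.000247) and Bysl, a small-subunit assembly factor (-0.75 ± 0.12, adjusted p = 0.00036). Of 35 initiation factors 22 fell (62.9%) and 0 rose (median -0.22), and Eif4a1, the cap-complex helicase, was among those that fell (-0.44 ± 0.08, adjusted p = 0.000862). Of 11 elongation and termination factors 10 fell (90.9%) and 1 rose (9.09%), with Etf1, the release factor, at -0.52 ± 0.08 (adjusted p = 0.000212).

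The mitochondrial ribosome did not share that direction in liver, since 7 of its 77 measured proteins rose (9.09%) and 4 fell (5.19%, median 0.04). Of 23 genes of mTORC1 and its control of TOP mRNAs 5 rose (21.7%) and 4 fell (17.4%), near the shares of all liver genes (16.3% and 18.5%), with a median of -0.02, among them Larp1 (-0.45 ± 0.09, edgeR adjusted p = 0.0012) and Tsc1, an inhibitor of mTORC1 (0.39 ± 0.08, adjusted p = 0.00219). Of 11 non-coding snoRNA host genes, which carry TOP motifs as well, 2 fell and 0 rose (median -0.20). The 18.2% that fell were near the 18.5% of all liver genes, and Gas5 was among them (-0.27 ± 0.08, edgeR adjusted p = 0.0127). On HFLF against LF, where 12.4% of all liver genes were lower, 15 of 35 initiation factors (42.9%), 17 of 63 nucleolar factors (27.0%) and 15 of 77 mitochondrial ribosomal proteins (19.5%) were lower, with 1, 1 and 0 higher.

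In eWAT on HF against LF, 20.6% of all genes rose and 20.2% fell. Of the 77 mitochondrial ribosomal proteins 31 fell and 0 rose (median -0.20), for example Mrps35 (-0.65 ± 0.10, edgeR adjusted p = 0.000111). Of 12 snoRNA hosts 7 fell and 0 rose (median -0.38), among them Snhg5 (-0.74 ± 0.14, adjusted p = 0.000527) and Snhg12 (-0.64 ± 0.12, adjusted p = 0.000633). Nucleolar factors were split with 10 higher, such as Tsr1 (0.42 ± 0.09, adjusted p = 0.00103), and 10 lower, such as Imp3 (-0.39 ± 0.08, adjusted p = 0.000839). Of 35 initiation factors 4 were higher (11.4%) and 10 lower (28.6%), of 11 elongation and termination factors 3 (27.3%) and 1 (9.09%), and of 23 mTORC1 genes 7 (30.4%) and 4 (17.4%). Of the 7 ribosome-associated proteins and ribosomal proteins under other symbols 1 was higher and 1 lower. Several of these shares lay near those of all genes. Rack1 was higher there on HF (0.27 ± 0.10, adjusted p = 0.0375), where it was lower in liver.

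**Figure D5:**
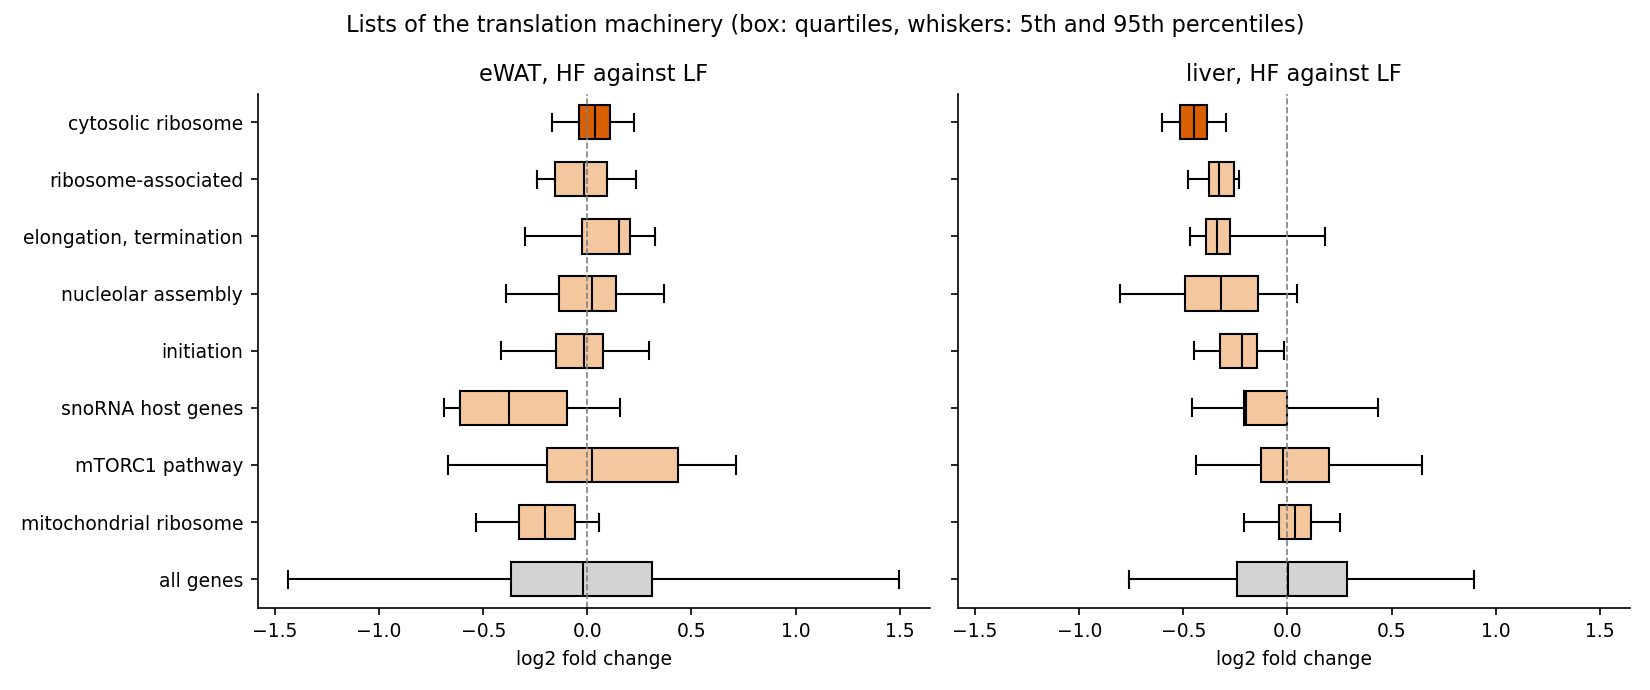
Boxes give the log2 fold changes of HF against LF for the cytosolic ribosomal proteins, 7 companion lists and all genes (line: median, box: quartiles, whiskers: 5th and 95th percentiles), with eWAT on the left and liver on the right. In liver the members' box lies lowest, around -0.45, and the mitochondrial ribosome at 0.04, while in eWAT the members lie at 0.03 and the snoRNA hosts and the mitochondrial ribosome below 0.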

How the data were processed

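The deposited counts were raw whole-number counts per gene, 1 table per tissue, that the authors made with STAR and GRCm38.p6, per the submitters' processing notes. The sources used here give neither the counting tool nor its strand setting, so reads of a member and of an overlapping gene may not be told apart. Each gene kept by the authors had a CPM above 0.5 in at least 6 libraries, as tested on the tables. Symbols came from the GENCODE annotation of GRCm38, matched by gene ID for 16674 of 16690 eWAT and 14039 of 14052 liver genes. The deposited tables named RPKM were not used. No libraries were near copies and no columns were left unmapped.

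The members and the gene lists were chosen with earlier results of these data known. In each tissue the 3 diets entered 1 model with TMM factors and no covariate. It was fitted with the robust quasi-likelihood functions of edgeR 4.0.16 under R 4.3.3, and F tests were adjusted by Benjamini-Hochberg over all genes of the table at 0.05. Tissue differences came from 1 joint fit. Alternatives used RLE or upper-quartile factors, DESeq2 1.42.0, limma voom 3.58.1, stricter filters, only the compared groups, a replicate block, no robust estimation and leaving out single libraries. Fits without liver LF 1 to 4, liver LF 1 and 2 or the 5 eWAT libraries with epididymal transcripts, and with total counts, were chosen after seeing the data. Genes named were up to 4 called rises and 4 called falls per comparison, a fixed set of members and paralogs, members never called, and up to 3 genes per list with the smallest p; Rps15a, Rps10, Rpl8, Rpl4, Rps15 and Rps14 were named after their values were seen. Scripts were tested on simulated data.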

Additional observations from a re-analysis of the deposited data

Results flagged for a closer look

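Values of 32 named members and the summed share of all members were searched for a library far from the other 5 of its group. Of 198 groups 15 held one. Chance gives about 1 in 20 for independent groups, but members vary together over the same libraries, so that rate is no reference here. Liver LF 1 accounted for most. There Rpl10 was at 289.8 CPM (206.2 to 221.8 in the other 5 LF livers), Rpl10a at 130.6, Rpl11 at 75, Rpl12 at 115.5, Rpl36 at 123.8 and Rps12 at 147.2 CPM. Rps16 was at 143.1, Rps21 at 120.9, Rps26 at 145.9, Rps27 at 128.0 and Rps6 at 83.2 CPM in the same library, and its summed share of members was 1.12%, against 0.843% to 0.945%. Without that library 70 members fell on HF against LF. In liver HFLF 4, Rpl13a was at 27.3 CPM (14.6 to 18.2 in the others) and Rpl7l1 at 71.3 CPM (56.7 to 60.7). In eWAT HF 6, Rpl36al was at 8.37 CPM (6.63 to 7.01).

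The response to diet differed between eWAT and liver by a test of the difference itself. For HF against LF, 58 members were higher in eWAT (edgeR adjusted p under 0.05), led by Rpl13a (0.92), Rpl10a (0.84), Rps16 (0.77) and Rpl12 (0.75) on the log2 scale. For HFLF against HF, 14 members were lower in eWAT, led by Rpl10a (-0.67), Rpl13a (-0.58), Rps16 (-0.48) and Rpl22l1 (-0.47).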

How the results depend on the processing

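With upper-quartile factors 6 members fell in liver on HFLF against LF, 6 fell in eWAT on HF against LF, 5 rose in eWAT on HFLF against HF, and 6 differed between tissues for HFLF against HF. For eWAT against liver on LF they gave 7 higher and 36 lower (median -0.16), and total counts gave 62 higher and 4 lower with a reversed median of 0.42. Total counts also gave 1 lower in liver on HFLF against LF, and 5 higher and 1 lower in eWAT on HF against LF. A fit of only the compared groups gave 12 lower in liver on HFLF against LF, 10 higher on HFLF against HF, and 1 lower in eWAT on HF against LF. For liver HFLF against HF DESeq2 gave 17 higher, limma voom 19 and the filter of a mean CPM of at least 5 gave 8. For eWAT HFLF against HF these gave 3 higher each, and DESeq2 5 lower. The shares of all genes called under these alternatives are not given here. Without liver LF 1 to 4, 10 members fell on HF and 0 on HFLF against LF, and 33 differed between tissues for HF; fewer libraries are left there. Without LF 1 and 2, 5 fell on HFLF against LF. Without the 5 eWAT libraries, 1 rose and 1 fell on HF against LF, 0 and 0 on HFLF against HF, and 6 differed between tissues for HFLF against HF.

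The labels do not say that replicate numbers pair the libraries, and not every own-number correlation was above 0.1. Between diets they ran from -0.363 to 0.58, and 0 to 2 of 6 libraries correlated best with their own number. Between eWAT and liver 3 of 6 HFLF, 3 of 6 HF and 5 of 6 LF libraries did, which hints at shared numbers between tissues, from the data and not the design. With the number as a replicate block 13 members fell in liver on HFLF against LF, 0 rose on HFLF against HF, 5 rose in eWAT on HF against LF, 3 rose and 4 fell there on HFLF against HF, and 7 differed between tissues for HFLF against HF, against 14 without the block. A block on the number joins libraries of different diets, so it does not stand for mice shared between tissues.

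Leaving out single libraries gave 70 to 78 members lower in liver on HF, 9 to 40 lower on HFLF against LF, and 0 to 8 higher on HFLF against HF. In eWAT it gave 2 to 6 higher and 1 to 4 lower on HF against LF, 0 to 2 higher and 1 to 4 lower on HFLF against HF, and 0 called on HFLF against LF. Between tissues it gave 50 to 63 members for HF, 6 to 25 for HFLF against HF, and 2 to 4 higher and 45 to 56 lower on LF.

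Of 1328 alternatives for 54 single-gene results, 1167 kept the direction and the side of the threshold, 153 lost the call and 8 turned the sign, all of Rps27l in liver on HF against LF, which was never called. It was 0.05 with upper-quartile factors and with limma voom, 0.004 with the filter, 0.084 without LF 1 and 2, 0.074 with total counts, and between -0.069 and 0.031 without single libraries (above 0 without LF 1, LF 2 or HF 5). The causes of these changes were not tested. Depth limits Rps27rt, with 8 to 44 counts per liver library.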

Other observations

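In eWAT on HFLF against HF, 11 of 77 mitochondrial ribosomal proteins were higher (14.3%) and 0 lower (edgeR adjusted p under 0.05), where 10.7% of all genes were higher and 14.7% lower. Mrps18a was one of them (0.38, adjusted p = 0.00494). Of the 63 nucleolar assembly factors 3 were higher (4.76%) and 17 lower (27.0%), among them Rrp12 (-0.60, adjusted p = 0.000536), which is known in yeast for the export of the subunits. The helicase genes Eif4a2 (0.58, adjusted p = 0.00233) and Eif4a1 (-0.53, adjusted p = 0.00637) went opposite ways, and Eef2k, the kinase that inhibits elongation, was higher on HFLF (0.56, adjusted p = 0.00264).

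In liver on HFLF against HF, 10 of 77 mitochondrial ribosomal proteins were lower (13%) and 0 higher (edgeR adjusted p under 0.05), where 3.05% of all genes were lower and 2.18% higher. They include Mrpl45 (-0.40, adjusted p = 0.00725). Eif3a (0.35, adjusted p = 0.0246) and Eif4b (0.34, adjusted p = 0.0266) were the 2 of 35 initiation factors that were higher (5.71%), and Ddx21 (0.46, adjusted p = 0.0282) and Rrn3, a factor of RNA polymerase I (0.52, adjusted p = 0.0468), were the 2 of 63 nucleolar factors that were higher (3.17%), with 1 lower.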
